A study of Drosophila melanogaster with 36 samples.

Results

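Hmgs, Fpps, qm, Npc1a and Npc2a are 5 Drosophila genes of the mevalonate pathway and of sterol trafficking. They were matched by their FlyBase symbols as 5 of the 17142 genes counted. These genes, and the gene lists set beside them, were chosen with earlier results of these data known. Their counts beside the shares of all genes are therefore a description. The 5 genes were followed in S3 cells, an embryonic Drosophila cell line, in which oleic acid (OA) loads lipid droplets and small molecules were tested as inhibitors of lipid storage. RNA-Seq was made after 4 h in medium with 5% serum, in 36 libraries of 10 groups. The cells with 200 µM OA and no DMSO (OA, 6 libraries) were set against cells with no addition (noOA, 6 libraries). All other groups carried 0.1% DMSO. The compound groups had DMSO, 200 µM OA and 1 µM of an active or an inactive derivative of chemotype 1, 2 or 3 (CT1, CT2, CT3), with 3 libraries each. Their controls were DMSO with OA (vehicle OA, 3 libraries) and DMSO alone (vehicle noOA, 3 libraries). The study's methods name the active derivatives as THI-4 for CT1, TPE-69 for CT2 and AU-6 for CT3 and the inactive ones as THI-68, TPE-67 and AU-73, on a tetrahydroindazole, a thienopyrrole and an arylureido core. All groups come from a single cell line, and replicates are separately labelled samples, so p-values measure only the spread between these samples, which may be technical.

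The mevalonate pathway builds isoprenoids from acetyl-CoA. In mammals it leads to cholesterol, and its genes rise together when sterols are scarce. Flies lack the enzymes that turn farnesyl pyrophosphate into sterols, take sterols from food or serum, and use the pathway for the isoprenoids of prenylated proteins, ubiquinone and dolichol. Hmgs encodes HMG-CoA synthase, an early step that joins acetyl-CoA to acetoacetyl-CoA. Fpps encodes farnesyl pyrophosphate synthase, and qm (quemao) encodes geranylgeranyl pyrophosphate synthase, the late steps that make the lipid tails of prenylated proteins. Npc1a and Npc2a are the fly relatives of the human Niemann-Pick type C genes, whose proteins hand sterols out of the late endosome and lysosome. Hmgs and Fpps lie on chromosome arm 2R, qm on 3L, and Npc1a and Npc2a on 2L, and none of the 5 shares exon bases on its strand with another counted gene in the BDGP6 annotation (0% each).

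Library totals ran between 1208200 and 9548314 counts, with 34.7 to 51.5% of the counts on the 18S rRNA gene. Vehicle noOA replicate 1 and vehicle OA replicate 3, with 1314250 and 1208200 counts, are missing from the authors' own expression table and were left out, so that each vehicle group had 2 libraries. The OA and noOA libraries are all missing from that table as well. It does not show which of them the authors kept, and all were used. The library of noOA replicate 1 (1766556 counts) was also shallow and was kept. Hemocyte markers were present, with a median FPKM of 618 for Pxn, 139 for srp and 77.0 for eater, while NimC1 was at 0.121, and the fat body markers Lsp2 and Fbp1 were at a median of 0. Of the muscle markers, Mlc2 had a median FPKM of 116 and Mhc 0.0419, and of the neuronal ones elav had 3.92, brp 1.64 and nSyb 0.138. A gene was called at an adjusted p under 0.05 in edgeR's quasi-likelihood test with Benjamini-Hochberg adjustment over all genes tested. Levels are CPM, a gene's counts per 1000000 counts of edgeR's normalized library size, except where FPKM, which also divides by transcript length, is named.

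All 5 genes were expressed, with at least 71 counts for every member in every library used. Over the 34 libraries used, the median FPKM was 75.7 for Fpps, 73.0 for Npc2a, 63.9 for qm, 48.3 for Hmgs and 22.5 for Npc1a. Among the 8076 genes with a median FPKM over 1, these levels stood at percentiles of 88.4, 88.0, 86.2, 81.6 and 62.8. The members varied very differently among the 10 groups. Between the highest and the lowest group mean of CPM, Hmgs spanned 2.80-fold, Fpps 1.88-fold and qm 1.72-fold, against 1.33-fold for Npc2a and 1.16-fold for Npc1a. The 3 active groups held the 3 highest means for each of Hmgs, Fpps and qm, in the order CT1, CT3, CT2, and for these enzymes the noOA and vehicle noOA groups were among the lowest. Of the neighbours among the active groups, CT1 and CT3 differed by a called amount for Hmgs only, and CT3 and CT2 for none. Below the active groups, inactive CT2 came next for Hmgs and Fpps and inactive CT1 for qm. For Npc1a, the means of all 10 groups lay between 52.1 and 60.3 CPM, and for Npc2a between 29.1 and 38.7 CPM, with the lowest mean in vehicle OA.

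**Figure D1:**
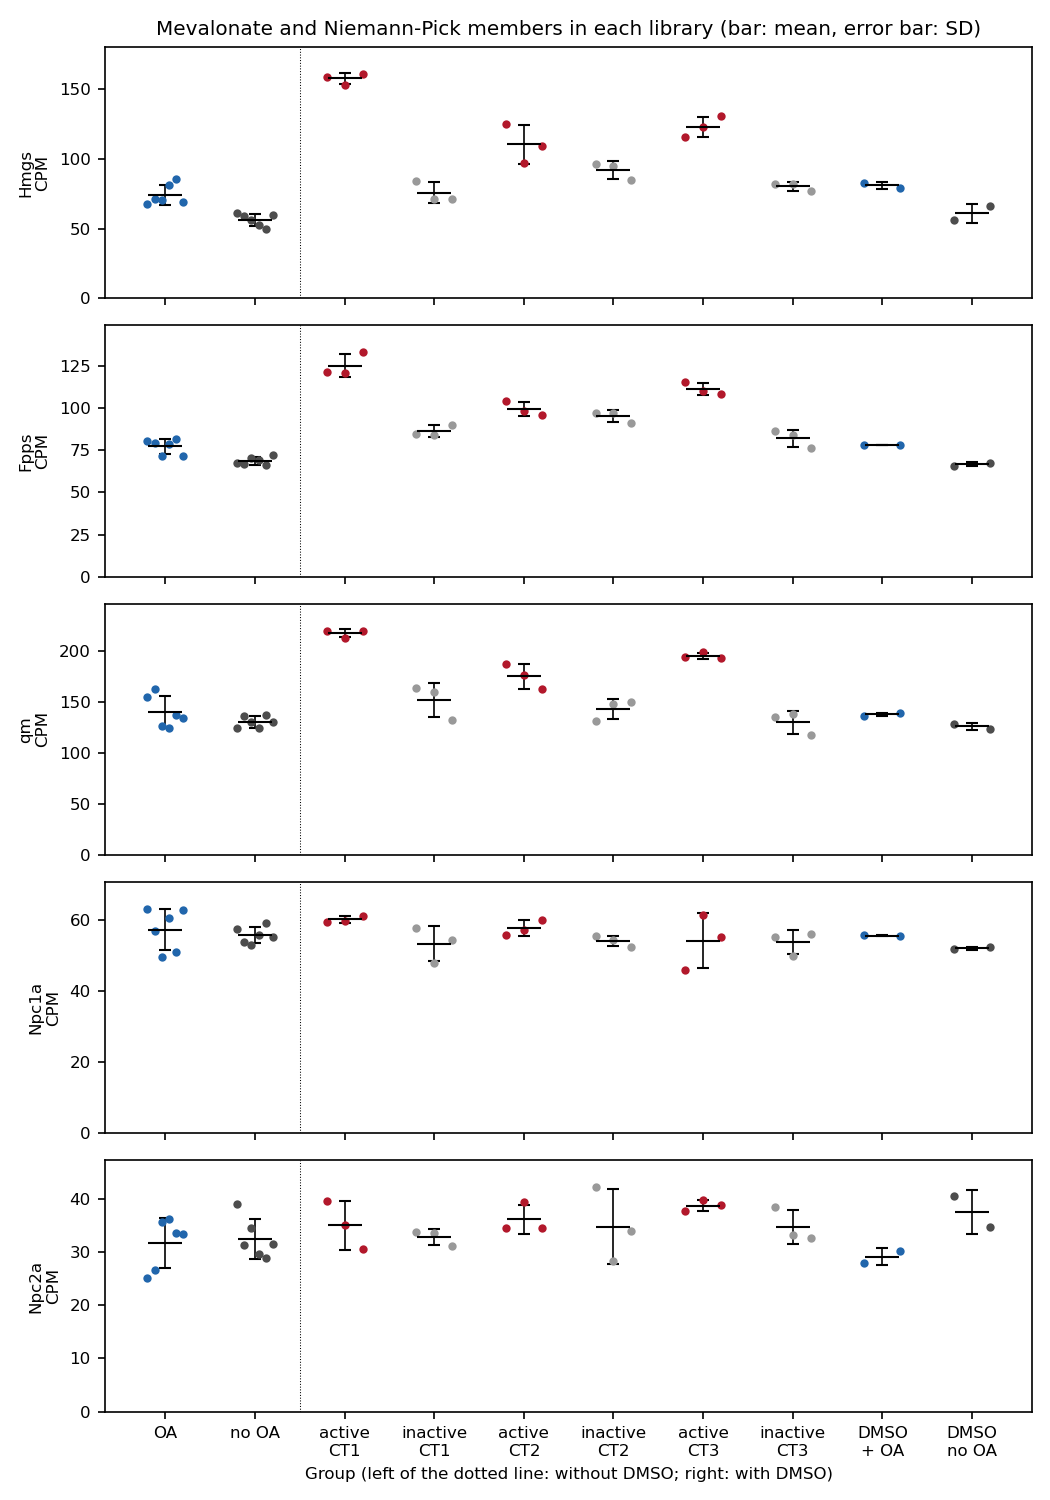
CPM of the 5 members in each of the 34 libraries used (points), with the mean (bar) and SD (error bar) of each group. DMSO + OA is vehicle OA, and DMSO no OA is vehicle noOA. The groups without DMSO are left of the dotted line, and each active derivative stands beside its inactive one. In active CT1 the 3 Hmgs libraries sit between 153 and 161 CPM, against 79.2 and 83.0 CPM in vehicle OA, while Npc1a stays between 46.1 and 63.2 CPM in every library.

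The comparison of OA with noOA asks how these genes responded when OA was added. Per the study's methods, OA was given bound to fatty acid free albumin. No group is labelled as given albumin alone, so effects of OA and of its carrier cannot be told apart. Hmgs and Fpps were the members that rose, 2 of 5, where 6.68% of the 7546 genes tested rose and 13.6% changed in either direction. Hmgs had 67.8, 71.2 and 85.8 CPM (lowest, median, highest of 6) in OA cells, against 49.9, 57.6 and 61.0 CPM in noOA cells. Every OA library lay above every noOA library, as it did for 2.66% of all genes. The log2 fold change was 0.40 ± 0.06 (SE), or 1.32-fold, with an edgeR adjusted p of 1.51e-05, and it was 0.42 without the shallow noOA replicate 1. In bulk RNA from cultured cells, a change in the share of cells that express a gene and a change in RNA per cell cannot be told apart. Fpps had 71.8, 78.9 and 81.5 CPM in OA cells, against 66.3, 68.3 and 72.3 CPM in noOA cells, so that the ranges overlapped at their edges. Its log2 fold change was 0.16 ± 0.05 (edgeR adjusted p = 0.0195), and the call was lost without OA replicate 2, at an adjusted p of 0.0505, or with no filter on low counts, at 0.0521. For qm, the OA cells had 124, 135 and 163 CPM, against 124, 130 and 137 CPM in noOA cells, a log2 fold change of 0.11 with a 95% interval of 0.000335 to 0.23 and an edgeR adjusted p of 0.194. OA replicates 1 and 2 were the high ones, and the remaining OA libraries lay among the noOA libraries. The column codes of OA replicates 1 and 2 end in the same digit as those of all noOA libraries. Those of the remaining OA libraries end in another digit. The labels do not say what the codes stand for, and their part in this split was not tested. In limma's fit of log2(FPKM + 1), which called far fewer genes, the difference for Hmgs was 0.55 with an adjusted p of 0.218, and Fpps had an adjusted p of 0.598. The FPKM of noOA replicate 1 were low, at 16.6 for Hmgs and 34.0 for Fpps. The other noOA libraries had 30.8 to 39.6 and 58.7 to 73.9. Its CPM, 61.0 and 67.2, were not low. No FPKM fit was made without it. With library medians equalised, in a fit added after seeing the data, Hmgs was called and Fpps was not.

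The sterol trafficking genes showed no called change with OA. Npc1a had 49.6, 58.8 and 63.2 CPM in OA cells, against 53.1, 55.6 and 59.2 CPM in noOA cells, and Npc2a had 25.1, 33.4 and 36.2 CPM in OA cells, against 28.9, 31.4 and 38.9 CPM in noOA cells. The groups overlapped for both genes. For Npc2a, OA replicates 1 and 2 had 25.1 and 26.6 CPM, below every noOA library. OA replicates 3 to 6 had between 33.3 and 36.2 CPM, and the sign of the Npc2a change differed in 6 alternatives. The OA replicates split here as they do by column code. The log2 fold changes were 0.06 for Npc1a (95% interval -0.06 to 0.18) and -0.04 for Npc2a (-0.22 to 0.13).

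With DMSO in the medium, Hmgs again rose with OA. Hmgs had 83.0 and 79.2 CPM in vehicle OA, against 56.3 and 65.9 CPM in vehicle noOA, a log2 fold change of 0.40 ± 0.11 (edgeR adjusted p = 0.0157). It was the only member to rise, 1 of 5, where 2.98% of the 7522 genes tested rose and 6.45% were called. The libraries did not overlap, as for 25.3% of all genes with this few libraries. Hmgs was not called without vehicle noOA replicate 2 (adjusted p = 0.255), vehicle OA replicate 1 (0.128) or vehicle OA replicate 2 (0.0788). Fpps had 77.9 CPM in both vehicle OA libraries, against 65.9 and 67.5 CPM in vehicle noOA, a log2 fold change of 0.22 ± 0.09 that was not called (edgeR adjusted p = 0.127). Npc2a stood at 27.9 and 30.2 CPM in vehicle OA, against 40.5 and 34.6 CPM in vehicle noOA, a log2 fold change of -0.36 ± 0.14 that was not called (edgeR adjusted p = 0.109). These pairs of libraries did not overlap, as for 24.8% of all genes in this direction, and the call appeared when only these 2 groups were fitted (edgeR adjusted p = 0.0466). The OA effect with DMSO minus that without it was 0.00 for Hmgs (95% interval -0.26 to 0.26), 0.06 for Fpps and -0.32 for Npc2a (-0.68 to 0.05), and none was called, where 0% of all genes were (290 genes had an unadjusted p under 0.05, and DESeq2 called 0). DMSO itself changed no member by a called amount, either in vehicle OA against OA, where 0% of all genes were called (391 at an unadjusted p under 0.05, and 0 by DESeq2), or in vehicle noOA against noOA, where 0.0133% were called. None of the 15 tests of members in these 3 contrasts had an unadjusted p under 0.05 (0), and DESeq2 called 0.

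The active compounds were added on top of OA, and the comparison with vehicle OA asks what each did to OA-fed cells. The same 3 enzymes, Hmgs, Fpps and qm, were called higher with all 3 compounds. For active CT2 these calls rested on vehicle OA replicate 2, and Fpps was not called against inactive CT2. With active CT1, Hmgs, Fpps and qm rose, 3 of 5 members, where 7.48% of all genes tested rose and 12.1% were called. Hmgs had 159, 153 and 161 CPM in active CT1, against 83.0 and 79.2 CPM in vehicle OA. The log2 fold change was 0.96 ± 0.09, or 1.95-fold (edgeR adjusted p = 1.98e-11), which is the largest of any member against vehicle OA. Fpps had 122, 121 and 133 CPM in active CT1, against 77.9 CPM in both vehicle OA libraries, a 1.60-fold rise (log2 0.68 ± 0.07, edgeR adjusted p = 1.41e-09). For qm the active CT1 libraries had 220, 212 and 219 CPM, against 137 and 139 CPM in vehicle OA, a 1.57-fold rise (log2 0.65 ± 0.08, edgeR adjusted p = 2.52e-08). The libraries of the groups did not overlap for any of the 3 enzymes, as for 20.3% of all genes, and these calls held without any 1 library.

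Active CT3 gave rises of intermediate size. Hmgs had 116, 123 and 130 CPM in active CT3, against 83.0 and 79.2 CPM in vehicle OA, a 1.54-fold rise (log2 0.62 ± 0.09, edgeR adjusted p = 3.42e-06). Fpps had 115, 110 and 108 CPM in active CT3, against 77.9 CPM in both vehicle OA libraries (log2 0.51 ± 0.08, edgeR adjusted p = 3.45e-06). For qm the active CT3 libraries had 194, 198 and 193 CPM, against 137 and 139 CPM in vehicle OA (log2 0.51 ± 0.08, edgeR adjusted p = 1.75e-05). Every active CT3 library lay above vehicle OA for these genes, as for 16.8% of all genes. In limma's fit of log2(FPKM + 1) the adjusted p was 0.0531 for Hmgs, 0.0513 for Fpps and 0.0882 for qm. All 3 were called with library medians equalised, in a fit added after seeing the data. On counts, Npc2a was called with active CT3 as well, so that 4 of 5 members rose, where 4.00% of all genes rose and 4.87% were called. Npc2a had 37.6, 39.7 and 38.8 CPM in active CT3, against 27.9 and 30.2 CPM in vehicle OA (log2 0.41 ± 0.13, edgeR adjusted p = 0.0497). The Npc2a call was lost on leaving out any 1 of the 5 libraries, with adjusted p-values of 0.0708 without active CT3 replicate 1, 0.115 without replicate 2, 0.145 without replicate 3, 0.295 without vehicle OA replicate 1 and 0.205 without vehicle OA replicate 2. It was also lost with RLE factors (0.0514) and with DESeq2 (0.136). The vehicle OA mean of Npc2a was the lowest of all 10 groups, and Npc2a had positive log2 fold changes, between 0.16 and 0.41, in all 6 compound groups against it.

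Active CT2 gave the smallest rises. Hmgs had 125, 97.0 and 109 CPM in active CT2, against 83.0 and 79.2 CPM in vehicle OA (log2 0.46 ± 0.09, edgeR adjusted p = 0.000951). Fpps had 104, 98.4 and 96.0 CPM in active CT2, against 77.9 CPM in both vehicle OA libraries (log2 0.37 ± 0.08, edgeR adjusted p = 0.0017). For qm the active CT2 libraries had 187, 177 and 162 CPM, against 137 and 139 CPM in vehicle OA (log2 0.36 ± 0.08, edgeR adjusted p = 0.00515). These made 3 of 5 members higher, where 1.97% of all genes rose and 2.03% were called. The libraries did not overlap for these enzymes, as for 13.4% of all genes, but all 3 calls rested on vehicle OA replicate 2, without which the adjusted p was 0.117 for Hmgs, 0.0909 for Fpps and 0.129 for qm. The call of qm was also lost without vehicle OA replicate 1 (0.120) or active CT2 replicate 1 (0.0558). On log2(FPKM + 1) with limma the adjusted p was 0.228 for Hmgs, 0.222 for Fpps and 0.453 for qm. With library medians equalised, in a fit added after seeing the data, Hmgs and Fpps were called and qm was not.

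Npc1a was called with no compound. It had 59.6, 59.9 and 61.3 CPM in active CT1, 55.8, 57.3 and 60.2 CPM in active CT2 and 46.1, 61.5 and 55.3 CPM in active CT3, against 55.9 and 55.5 CPM in vehicle OA. The log2 fold changes were 0.11 (95% interval -0.07 to 0.29) for CT1, 0.07 (-0.12 to 0.25) for CT2 and -0.01 (-0.20 to 0.18) for CT3, and the highest of these upper bounds is a 1.22-fold rise. Over all 17 comparisons Npc1a was called in 0 by edgeR and in 0 by DESeq2, and 0 had an unadjusted p under 0.05.

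The inactive derivatives share a core with the active ones and serve as their structural controls. Against vehicle OA, no member was called with any of the 3 (0 of 15 tests by edgeR, 0 by DESeq2 and 3 at an unadjusted p under 0.05). Of all genes, 0% were called with inactive CT1 (364 at an unadjusted p under 0.05, and 1 by DESeq2), 0.877% with inactive CT2, with 0.585% higher, and 0.0133% with inactive CT3. Hmgs had 84.4, 71.1 and 71.5 CPM in inactive CT1, 96.6, 94.9 and 84.8 CPM in inactive CT2 and 81.8, 82.3 and 76.9 CPM in inactive CT3, against 83.0 and 79.2 CPM in vehicle OA. The inactive CT2 libraries were the highest of these and lay above vehicle OA, as for 11.7% of all genes (log2 0.18, 95% interval -0.02 to 0.37). Fpps also lay above vehicle OA there, with 97.2, 97.3 and 90.9 CPM in inactive CT2, against 77.9 CPM in both vehicle OA libraries (log2 0.29 ± 0.08, edgeR adjusted p = 0.0702). It passed the threshold once the left-out vehicle libraries were put back (log2 0.30, edgeR adjusted p = 0.0298). In inactive CT1, Fpps had 84.9, 84.1 and 90.3 CPM (log2 0.16, 95% interval 0.000171 to 0.32, edgeR adjusted p = 0.963). Npc2a had a log2 fold change of 0.27 with inactive CT3 (95% interval 0.00326 to 0.53, edgeR adjusted p = 0.647).

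Set directly against their inactive partners at the same dose and time, active CT1 and active CT3 gave higher Hmgs, Fpps and qm, and active CT2 gave higher Hmgs and qm. With CT1, 3 of 5 members rose, where 8.42% of all genes rose and 12.7% were called. Hmgs was 2.07-fold higher in active CT1 than in inactive CT1 (log2 1.05 ± 0.08, edgeR adjusted p = 4.01e-14), Fpps 1.43-fold (log2 0.52 ± 0.06, edgeR adjusted p = 2.06e-08) and qm 1.44-fold (log2 0.52 ± 0.07, edgeR adjusted p = 1.52e-07). For Hmgs the active CT1 libraries had 159, 153 and 161 CPM, against 84.4, 71.1 and 71.5 CPM in inactive CT1, and no library overlapped, as for 15.0% of all genes. With CT3, 3 of 5 rose, where 3.12% of all genes rose and 3.68% were called. The log2 fold changes were 0.62 ± 0.08 for Hmgs, 0.57 ± 0.07 for qm and 0.42 ± 0.07 for Fpps, at 3.48e-07, 1.80e-07 and 1.62e-05 as edgeR adjusted p-values. For qm the active CT3 libraries had 194, 198 and 193 CPM, against 135, 138 and 117 CPM in inactive CT3. The libraries did not overlap, as for 10.4% of all genes. On log2(FPKM + 1) with limma, the adjusted p of Fpps was 0.153.

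With CT2 the gap between the partners was small. Hmgs (log2 0.29 ± 0.08, edgeR adjusted p = 0.044) and qm (log2 0.29 ± 0.07, edgeR adjusted p = 0.0198) were higher in active than in inactive CT2, 2 of 5 members, where 2.03% of all genes rose and 2.49% were called. For qm the active CT2 libraries had 187, 177 and 162 CPM, against 131, 148 and 149 CPM in inactive CT2. The libraries did not overlap, as for 8.71% of all genes, yet both calls depended on single libraries, and so did the number of all genes called, which was 187 with all libraries and ranged from 59 (inactive CT2 replicate 3 left out) to 420 (inactive CT2 replicate 2 left out). Hmgs was lost without active CT2 replicate 1 (0.259), active CT2 replicate 3 (0.0878) or inactive CT2 replicate 3 (0.332), and qm without active CT2 replicate 1 (0.111), active CT2 replicate 2 (0.068) or inactive CT2 replicate 1 (0.120). With only the 2 groups fitted, the adjusted p was 0.145 for Hmgs and 0.0865 for qm, and DESeq2 gave 0.0552 for Hmgs. Fpps had 104, 98.4 and 96.0 CPM in active CT2, against 97.2, 97.3 and 90.9 CPM in inactive CT2. These libraries overlapped, and the log2 difference of 0.08 had a 95% interval of -0.05 to 0.21. Neither Npc1a nor Npc2a differed by a called amount between any active derivative and its inactive partner, with log2 fold changes between 0.04 and 0.16.

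**Figure D2:**
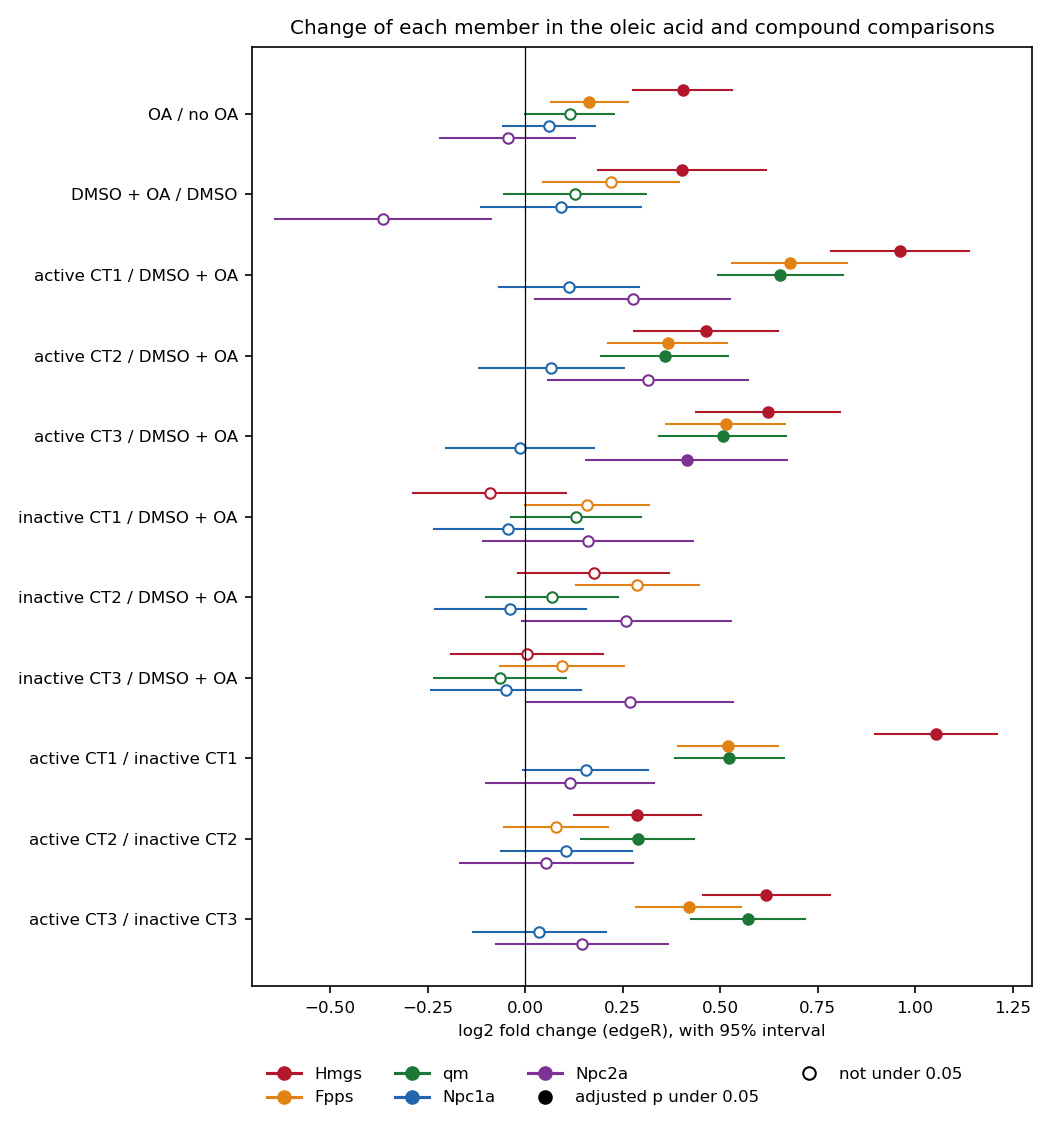
Log2 fold change (x axis, edgeR, with 95% interval) of each member in 11 comparisons (y axis). The group before the slash is set over the group after it. Filled points have an adjusted p under 0.05. Hmgs, Fpps and qm lie to the right of 0 with each active compound, at 0.96, 0.68 and 0.65 for active CT1, and Npc1a is never filled.

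The active compounds were then compared with each other at the same dose. Active CT1 exceeded active CT2 for 3 of 5 members, where 5.48% of all genes were higher in active CT1 and 9.89% were called. The log2 difference was 0.50 ± 0.07 for Hmgs (edgeR adjusted p = 1.70e-06), 0.31 ± 0.06 for Fpps (0.000208) and 0.30 ± 0.07 for qm (0.00163), and no library overlapped for these, as for 14.3% of all genes. Active CT1 exceeded active CT3 for Hmgs alone (log2 0.34 ± 0.07, edgeR adjusted p = 0.00168), 1 of 5 members, where 2.98% of all genes were higher and 4.64% were called. The Hmgs libraries did not overlap there, as for 11.6% of all genes. Fpps and qm differed there by 0.16 (95% interval 0.04 to 0.29) and 0.15 (0.01 to 0.28), with edgeR adjusted p-values of 0.132 and 0.272. Between active CT3 and active CT2 no member was called (0 by DESeq2 and 3 of 5 at an unadjusted p under 0.05), where 0.465% of all genes were called and 0.425% were higher, and the intervals of the log2 difference were 0.01 to 0.31 for Hmgs, 0.02 to 0.28 for Fpps and 0.01 to 0.29 for qm. All calls among the active compounds held without any 1 library. On log2(FPKM + 1) with limma, only that of Hmgs between active CT1 and active CT2 held. All of them held with library medians equalised, in a fit added after seeing the data.

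Other enzymes of the mevalonate pathway were set beside the members. These were Acat2, the acetoacetyl-CoA thiolase, the kinases Mvk and Pmvk, the decarboxylase Mvd and the isomerase Idi. Of these 5, the 4 that could be tested were called in 0 of 68 tests over the 17 comparisons, with 7 at an unadjusted p under 0.05 and 0 called by DESeq2. With active CT1 against vehicle OA their log2 fold changes had a range of -0.09 to 0.06, where the median over all genes was -0.01. With active CT3 the range was 0.08 to 0.34, and the highest of them was Idi (log2 0.34 ± 0.16, edgeR adjusted p = 0.275). In OA against noOA cells, Mvd had a log2 fold change of -0.37 ± 0.13 (edgeR adjusted p = 0.0558). These enzymes were expressed at lower levels than Hmgs, Fpps and qm, with a median FPKM of 8.45 for Pmvk, 6.80 for Mvd, 22.9 for Idi and 23.6 for Acat2, and their intervals were wider. For Acat2 with active CT1, the 95% interval of -0.23 to 0.31 lay below the 0.78 to 1.14 of Hmgs. With active CT3 there was no such gap between Idi (log2 0.34 ± 0.16) and qm (95% interval 0.34 to 0.67). Differences between these enzymes and the members were not tested.

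Mvk could not be tested on counts. It had 0 counts in all 36 libraries, and all of its exon bases (100%) overlap CG33672 on the same strand in the BDGP6 annotation. Its deposited FPKM was nevertheless high, at medians of 53.0 in active CT1, 48.8 in active CT2 and 47.8 in active CT3, against 51.3 in vehicle OA, and these FPKM cannot be told apart from those of the overlapping gene.

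**Figure D3:**
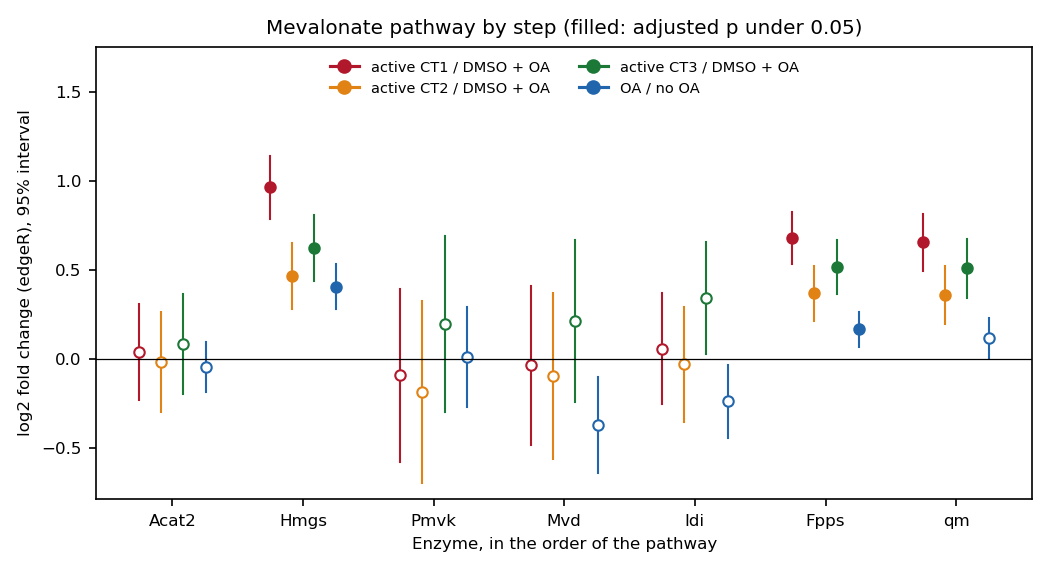
Log2 fold change (y axis, edgeR, with 95% interval) of 7 enzymes of the pathway, in the order of their reactions (x axis), with each active compound over vehicle OA and with OA over no OA. Filled points have an adjusted p under 0.05. Hmgs, Fpps and qm are filled with all 3 active compounds, and Acat2, Pmvk, Mvd and Idi are open throughout.

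The fatty acid response of the same cells gave 2 patterns to set beside these genes. The enzymes of fatty acid synthesis went down with OA, and those of mitochondrial beta-oxidation went up. In OA against noOA, 5 of 6 fatty acid synthesis genes fell, where 6.93% of all genes fell. FASN1, a fatty acid synthase, had a log2 fold change of -1.81 ± 0.08 (edgeR adjusted p = 6.83e-18), AcCoAS, which makes acetyl-CoA from acetate, had -1.65 ± 0.11 and ACC, the acetyl-CoA carboxylase, -1.55 ± 0.06. SREBP, the transcription factor that drives these genes in flies, fell by 0.75 on the log2 scale. Hmgs and Fpps went the other way in the same cells, with log2 fold changes of 0.40 and 0.16. Of the 16 beta-oxidation genes, 11 rose with OA, where 6.68% of all genes rose, and their median log2 fold change was 0.44, where the median over all genes was -0.01. whd, the carnitine palmitoyltransferase of the outer mitochondrial membrane, rose by 1.33 ± 0.10, Mcad, an acyl-CoA dehydrogenase, by 1.17 ± 0.09, and yip2, a thiolase, by 1.03 ± 0.07 on the log2 scale.

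With active CT1, FASN1 (log2 1.33 ± 0.12), ACC (0.70 ± 0.09) and ATPCL, the ATP citrate lyase (0.21 ± 0.07), rose against vehicle OA, 3 of 6, where 7.48% of all genes rose, together with SREBP (0.57 ± 0.09) and its escort SCAP (0.40 ± 0.09). With active CT2 and active CT3 none of the 6 was called (0 by DESeq2, and 2 of 12 tests at an unadjusted p under 0.05), and the median log2 fold changes were -0.05 and 0.00. Both of those tests were of FASN1, with log2 fold changes of 0.33 ± 0.12 with active CT2 (edgeR adjusted p = 0.254) and 0.29 ± 0.12 with active CT3 (edgeR adjusted p = 0.221). With inactive CT1 it had 0.33 ± 0.12 (edgeR adjusted p = 0.963). SREBP had -0.06 ± 0.09 with active CT2 and -0.08 ± 0.09 with active CT3. Hmgs, Fpps and qm rose with all 3 compounds. The same held for beta-oxidation, where 14 of 16 genes rose for active CT1, 12 for CT2 and 14 for CT3, against 7.48%, 1.97% and 4.00% of all genes, with median log2 fold changes of 0.77, 0.52 and 0.77. Mcad rose by 1.55 ± 0.08, 1.01 ± 0.08 and 1.35 ± 0.08 with these compounds in turn. The 3 comparisons share the vehicle OA libraries, and differences between the lists were not tested. With inactive CT2, 5 of 16 beta-oxidation genes also rose (median log2 fold change 0.33), where 0.585% of all genes rose. None was called with inactive CT1 and 1 with inactive CT3, where 0% and 0.0133% of all genes rose.

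**Figure D4:**
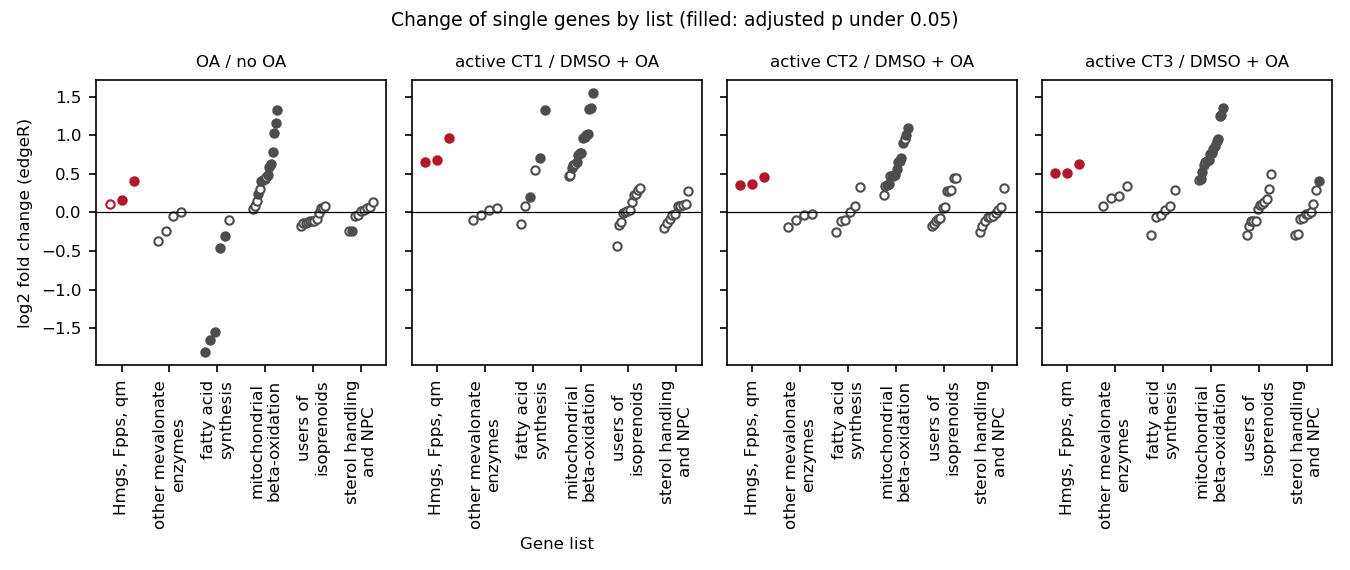
Log2 fold change (y axis, edgeR) of single genes by list (x axis), for OA over no OA and for each active compound over vehicle OA, with filled points at an adjusted p under 0.05. Hmgs, Fpps and qm (red) lie above 0 in every panel. Fatty acid synthesis is filled below 0 with OA and above 0 with active CT1 only, while beta-oxidation is mostly filled above 0 in all panels.

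Around the members, genes that use isoprenoids or handle sterols showed few calls. Of 13 genes that spend isoprenoids, among them Fnta and Fntb of the protein farnesyltransferase, betaggt-I of the enzyme that attaches geranylgeranyl tails, qless and Coq2 of ubiquinone synthesis and Dhdds of dolichol synthesis, 12 could be tested. In 204 tests there was 1 call, for ste24b, a CAAX prenyl protease, which was lower in active CT1 than in active CT2 (log2 -0.88 ± 0.28, edgeR adjusted p = 0.0331). With active CT1 against vehicle OA their log2 fold changes lay between -0.44 and 0.32, with a median of 0.03. Of 7 other sterol handling genes, 6 could be tested. CG3860, an oxysterol-binding protein relative, was lower in OA than in noOA cells (log2 -0.23 ± 0.07, edgeR adjusted p = 0.0165), and no other was called in 102 tests. Hr96, a nuclear receptor that binds cholesterol in flies, had a log2 fold change of 0.43 ± 0.14 in vehicle OA against vehicle noOA (edgeR adjusted p = 0.0609) and of 0.13 ± 0.08 in OA against noOA.

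Npc1a and Npc2a held nearly all counts of the Niemann-Pick family, with 10246 and 6076 over the 36 libraries. Npc1b had 37 counts over all 36 libraries together, and Npc2b, Npc2c, Npc2d, Npc2e and Npc2h had 9, 1, 0, 9 and 5. Npc2g (412 counts) and Npc2f (175) were low, with median FPKM of 4.86 and 2.25, against 73.0 for Npc2a, and neither was called in the comparisons in which it was tested (0 of 30 tests by edgeR, 0 by DESeq2 and 0 at an unadjusted p under 0.05).

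The enzymes that were closest to one another in pattern were Hmgs and Fpps. Across the 10 group means of log2 CPM, Pearson's r was 0.97 for Hmgs with Fpps, 0.93 for Hmgs with qm and 0.94 for Fpps with qm, and for these 3 with Npc1a and Npc2a it lay between 0.37 and 0.58. Many other genes had a higher r. Fpps was at rank 46 among the genes most like Hmgs, and qm was at rank 186 for Hmgs and 153 for Fpps. The group means rest on the same libraries, and 7638 genes were compared, so these values are a description. The median r of Hmgs with the 16 beta-oxidation genes was 0.96, against -0.38 with the 6 fatty acid synthesis genes. For Fpps these medians were 0.96 and -0.40, and for qm 0.87 and -0.18. The 3 genes most like Hmgs were Irp-1B, an iron regulatory protein, puml and Gtpx, a glutathione peroxidase (r of 0.99 each). For Fpps they were Pex14, a peroxin of peroxisomal protein import, Abcd3, a peroxisomal transporter of fatty acyl groups, and Gtpx (r of 0.99 each). For qm they were Vps13D, CG6178 and CG2767, with r of 0.99, 0.98 and 0.97. The nearest genes of Npc1a (Tpst, CG9393 and sp3, r of 0.95, 0.92 and 0.91) and of Npc2a (Pgd, Urod and CG31446, r of 0.92, 0.88 and 0.88) had lower r.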

How the data were processed

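The members and the gene lists were chosen with earlier results of these data known. Libraries were stranded polyA RNA-Seq. Per the submitters' processing notes, the authors used TopHat2 2.0.10, HTSeq 0.5.4p1 and Cufflinks 2.1.1. The deposited counts are raw reads per gene (17142 genes). The authors made the deposited FPKM with Cufflinks (17062 genes). Columns and samples were matched through the codes that the labels give. Members were matched by FlyBase symbol. The symbol qm is also listed as a synonym of RpL10 in RefSeq, and that gene was not taken. Of the list genes, FASN3 and Etf-QO found no ID, and FASN1 was matched through the gene names of the study's supplement.

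The test on counts was edgeR's quasi-likelihood test (version 4.0.16, R 4.3.3) after TMM scaling and a group-wise filterByExpr filter. Intervals are at 95%. The groups with DMSO shared a fit of 22 libraries (7522 genes) and the controls a fit of 16 libraries (7546 genes). The vehicle libraries to keep were found by matching FPKM with 1999 genes of the authors' per-sample table at a relative tolerance of 1e-04, where at least 99.8% of the values of a matched library were equal, and at most 0.206% in any other. No replicates were duplicates (chi-square per degree of freedom at least 1.38). The procedure was tested on simulated data. CPM come from 34 libraries scaled together. The genes named are the members, the list genes and, for each member, the 3 genes with the highest Pearson's r across the 10 group means of log2 CPM. Gene symbols came from FlyBase names for 16896 genes. Alternatives were RLE factors, DESeq2 1.42.0, no filter on low counts, all libraries, only the groups compared, a replicate block, limma 3.58.1 on log2(FPKM + 1) or log2(FPKM + 0.1), the first of these also without a filter, and each library left out. A fit of log2(FPKM + 1) with library medians equalised was added after seeing the data. One gene of the pathway is not reported here.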

Additional observations from a re-analysis of the deposited data

Results flagged for a closer look

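By a test of the difference itself, active CT1 differed from active CT2 for 3 enzymes and from active CT3 for Hmgs. Fpps and qm were not called between active CT1 and active CT3. Between active CT3 and active CT2 no member was called. Active CT1 was above active CT2 by 0.50 on the log2 scale for Hmgs, by 0.31 for Fpps and by 0.30 for qm. For these genes 3 of 3 active CT1 libraries lay above every active CT2 library, as for 14.3% of all genes. Active CT1 was above active CT3 by 0.34 for Hmgs. The edgeR adjusted p-values were 1.70e-06, 0.000208, 0.00163 and 0.00168. Of all genes, 5.48% were called higher in active CT1 than in active CT2, and 2.98% higher than in active CT3. On log2(FPKM + 1) with limma, only the Hmgs call against active CT2 held. With library medians equalised, in the fit added after seeing the data, all of these calls held. No member had an extreme library by Dixon's test in the OA or noOA groups of 6. That test measures the gap to the nearest library, so it could not flag 2 libraries that deviate together. OA replicates 1 and 2 did so for qm and Npc2a.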

How the results depend on the processing

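Of 25 calls of a member in a comparison, none changed sign in any alternative, 21 held in every alternative fitted to counts, 17 also without each single library, and 9 also on FPKM. Of the 60 results that were not called, 2 passed the threshold in some alternative, and 22 changed sign in some alternative without a call there. For OA against noOA the limma fits of FPKM called 61 genes (pseudocount 1), 52 (pseudocount 0.1) and 30 (no filter), against 1027 with edgeR on counts and 474 with library medians equalised. With log2(FPKM + 1) against counts they called 59 against 485 for vehicle OA over vehicle noOA, 435 against 912, 67 against 153 and 130 against 366 for active CT1, CT2 and CT3 over vehicle OA, 521 against 957, 24 against 187 and 110 against 277 for active over inactive CT1, CT2 and CT3, and 152 against 744 and 86 against 349 for active CT1 over active CT2 and active CT3. They called more for vehicle OA over OA (10, 6 and 8 against 0) and, with no filter, for vehicle noOA over noOA (13 against 1) and for the OA effect with DMSO minus that without it (8 against 0), and equalised medians gave 427 against 277 for active over inactive CT3. Fitting only the groups compared gave 835 against 485 genes for vehicle OA over vehicle noOA, 69 against 187 for active over inactive CT2, 17 against 66 for inactive CT2 over vehicle OA and 134 against 35 for active CT3 over active CT2. The number of members called with log2(FPKM + 1), log2(FPKM + 0.1) and no filter was 0, 0 and 0, against 2, for OA against noOA. It was 0, 0 and 0, against 1, for vehicle OA against vehicle noOA, and 0, 0 and 0, against 3, for active CT2 against vehicle OA. It was 0, 1 and 0, against 4, for active CT3 against vehicle OA, and 0, 0 and 0, against 2, for active against inactive CT2. It was 1, 1 and 1, against 3, for active CT1 against active CT2, and 0, 0 and 0, against 1, for active CT1 against active CT3. With library medians equalised, the count was 1 for OA against noOA, 0 for vehicle OA against vehicle noOA, 1 for inactive CT2 against vehicle OA and 1 for active against inactive CT2. That fit also called Hmgs, Fpps and qm for active CT3 against vehicle OA, and Hmgs and Fpps for active CT2 against vehicle OA. It called Hmgs, Fpps and qm for active CT1 against active CT2, and Hmgs for active CT1 against active CT3. On counts, DESeq2 called 1 member and the fit of the groups compared alone called 0 for active against inactive CT2. No filter left 1 member called for OA against noOA, all libraries called 1 for inactive CT2 against vehicle OA, and only the groups compared called 2 for vehicle OA against vehicle noOA, with Npc2a lower. The causes were not tested.

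Leaving out each library, the number of members called ranged from 0 to 1 for vehicle OA against vehicle noOA, from 0 to 3 for active CT2 against vehicle OA, from 0 to 2 for active against inactive CT2 and from 1 to 2 for OA against noOA. The number of genes called was 213 to 227, against 485, for vehicle OA over vehicle noOA, lowest without vehicle OA replicate 2, whose loss also gave 489 against 912, 74 against 153, 193 against 366 and 9 against 66 for active CT1, CT2 and CT3 and inactive CT2 over vehicle OA. It was 59 to 420 (187) for active over inactive CT2, 216 to 273 (349) for active CT1 over active CT3 and 4 to 47 (35) for active CT3 over active CT2. A vehicle group with 1 library left was assumed to vary like the others. Replicate numbers did not pair the samples, since the correlation of same-numbered deviations lay between -0.109 and 0.0994. With a replicate block, 1 member was called for OA against noOA and 2 for vehicle OA against vehicle noOA, as Fpps was lost in the first (log2 0.16, adjusted p = 0.0577) and Npc2a was lower in the second (log2 -0.44, adjusted p = 0.0324). Over all 36 libraries Pmvk had 1214 counts and Mvd 1293, and the part of depth in their lack of calls was not tested.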
